A study of Mus musculus with 3 samples.

Results

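The 37 genes described here make or mature ribosomes, or are growth genes known as targets of the transcription factor MYC. They were chosen by name, and a probe counted for a gene where its transcript accession belonged to that gene in the RefSeq gene table. By this rule 34 of the 37 genes had 53 of the 41174 probes on the array. No probe was matched to Gnl3, Utp20 or Wdr43. Of the 53 probes, 52 had signals well above background on all 3 arrays in each dye, and 33 genes entered the test among 18498 genes and transcripts. The only Ran probe carried an outlier flag on replicate 3 and was not tested.

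RNA came from untreated primary fibroblasts of mouse embryos at day 12.5 of gestation, which are cells of connective tissue, grown in DMEM with 10% serum. On each of 3 Agilent arrays, RNA of a culture labelled SA1-null, without the cohesin subunit SA1, was in Cy3 and RNA of a culture labelled wild type was in Cy5. The labels call the arrays biological replicates, no array had the dyes exchanged, and dye and genotype therefore cannot be told apart. The labels give no strain, no deletion design and no number of embryos per culture. Ratios are given as log2(Cy3/Cy5), positive where the channel labelled SA1-null was brighter, so that 1 is a 2-fold difference and 0 is none. The values deposited by the authors run the opposite way, as Cy5 over Cy3.

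Ribosomes are built in the nucleolus, where RNA polymerase I transcribes the ribosomal RNA precursor and small nucleolar ribonucleoproteins, helicases and assembly factors modify, cut and fold it into the small and large subunits. MYC binds with its partner MAX to E-boxes, short DNA motifs in promoters, and is known to raise transcription of many of these factors together with enzymes of polyamine and nucleotide synthesis, cell cycle regulators and chaperones. In cultured fibroblasts these genes are best known for following serum and growth state.

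The label check came first. Stag1, the SA1 gene, had spot signals of 1334, 1263 and 2029.5 in Cy3 against 388, 161 and 168 in Cy5 on replicates 1 to 3 at its brightest probe, and its log2 ratio averaged 3.52 (SD 0.21, n = 3, adjusted p = 0.0276 in limma). Of the other 3 Stag1 probes, 1 was well above background throughout and averaged 3.53. The remaining 2 were not well above background in Cy5, on all arrays for 1 of them and on 1 array for the other, and are given no ratio. Where the probes lie relative to the disruption was not analysed here. Stag1 was thus higher in the channel labelled SA1-null, which goes against the labels, and every sign below turns if the channels are exchanged. Fibroblast markers were present in both channels, with 16 of 18 tested and a median log2 ratio of 0.74. Their array medians were 1.19, 0.098 and 0.88, and 0 passed an adjusted p of 0.05 in limma. With each array centred on its median, a scaling used further below, their median was 0.20, where all genes were at -0.30. Macrophage and blood cell markers ran the other way, with 21 of 24 tested, all below 0 on all arrays and at a median of -2.86. Of these markers 11 passed in limma, where 0.308% of all genes did. Their summed spot signals ranged from 5645 to 30229 in Cy3 and from 72429.6 to 1134044 in Cy5, and 19 of the tested markers were well above background in Cy3 too. In bulk RNA fewer cells of a type and less RNA per cell cannot be told apart, and the part of these other cells in the values below was not tested.

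No gene of ribosome biogenesis or MYC-driven growth in the set passed the test. In limma 0 of 33 passed an adjusted p of 0.05, where 0.308% of all genes did, and their adjusted p-values ran from 0.55 to 0.998. At an unadjusted p under 0.05 there were 2, Odc1 and Ptma, both below 0, against 7.48% of all genes (5.16% below 0 and 2.32% above). The means ran from -0.58 for Odc1 to 0.78 for Cdk4. The 95% limma interval of the mean lay wholly between -1 and 1 for 24 of the 33 (72.7%, against 78.8% of all genes), and it held 0 for all but Odc1 and Ptma.

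The direction of the set as a whole depended on the array. The median of the 33 means was 0.14, against -0.024 for all genes, and 23 were above 0 (69.7%, against 45.6% of all genes). On replicate 1 the median of the set was 0.43 and 28 genes were above 0. On replicate 2 it was -0.078 with 7 above 0, and on replicate 3 it was 0.084 with 21 above 0. Of all genes, 46.4%, 46.9% and 46.5% were above 0 on replicates 1 to 3. Replicate 1, which was on a slide of its own, thus had the most genes of the set above 0. Without replicate 1 the median of the set was -0.015, against -0.016 for all genes. Without replicate 2, the array nearest to 0, it was 0.25, against -0.035 for all genes.

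The arrays also differed in how far the genes spread. On replicate 2 the median distance from 0 was 0.11 and 2 genes were more than 0.5 from 0, Ppan above and Ptma below. On replicates 1 and 3 it was 0.44 and 0.39, and 14 genes on each were more than 0.5 away. All genes on the array followed the same order, with median distances of 0.32, 0.12 and 0.29. Of the set, 5 genes (Ppan, Nop2, Ddx21, Srm and Cad) were above 0 on all 3 arrays (15.2%, against 13.3% of all genes), and 3 (Odc1, Eif4e and Ptma) were below 0 on all 3 (9.09%, against 19.1%).

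**Figure D1:**
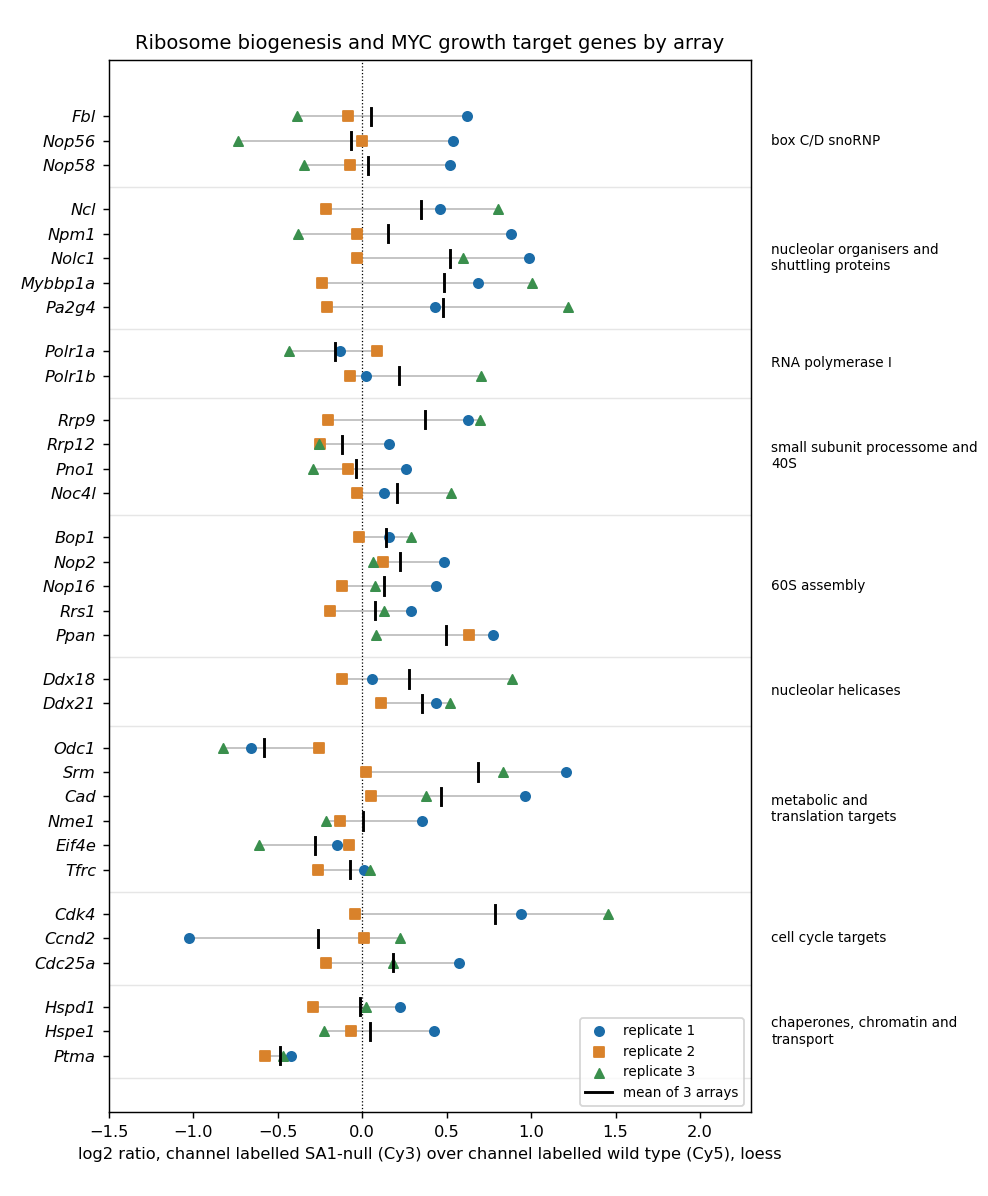
Each row is 1 gene, each symbol its loess-normalized log2 ratio on 1 array at its brightest probe, and the bar the mean of the 3 arrays; a dotted line marks 0. Replicate 2 lies close to 0 for most genes, while replicates 1 and 3 reach 1.21 and 1.45.

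Promoters are shown, with the E-box CACGTG in capitals, for 3 genes at the ends of the range (Cdk4, Odc1 and Ptma), for the 2 genes with an E-box whose ratios had the same sign on all arrays (Nop2 and Eif4e), and for a chaperone pair that shares its promoter. Windows reach from 250 bases before to 50 after the RefSeq start on assembly GRCm38.p6, 5′ to 3′ on the gene's strand. The motif reads the same on both strands and was searched with no mismatch. Cdk4, with the highest mean ratio, held 4 E-boxes, which begin at positions -172, -118, -98 and -11 from the start. Nop2, above 0 on all arrays with a mean of 0.22, held 1 at position -60, while Ppan, Ddx21 and Cad, also above 0 on all arrays, held none. Eif4e, below 0 on all arrays with a mean of -0.28, held 2 in the downstream one of its 2 windows, at -228 and -64. Odc1 and Ptma, with the lowest ratios, held none in this window. These 5 genes lie on the plus strand.
Cdk4 chr10:127063285-127063584: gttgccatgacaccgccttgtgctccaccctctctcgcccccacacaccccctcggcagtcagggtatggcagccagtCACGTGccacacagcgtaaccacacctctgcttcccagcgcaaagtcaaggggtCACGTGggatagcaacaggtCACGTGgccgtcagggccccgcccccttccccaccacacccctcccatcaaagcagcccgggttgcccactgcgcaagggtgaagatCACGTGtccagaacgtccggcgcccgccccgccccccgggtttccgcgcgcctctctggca
Nop2 chr6:125131633-125131932: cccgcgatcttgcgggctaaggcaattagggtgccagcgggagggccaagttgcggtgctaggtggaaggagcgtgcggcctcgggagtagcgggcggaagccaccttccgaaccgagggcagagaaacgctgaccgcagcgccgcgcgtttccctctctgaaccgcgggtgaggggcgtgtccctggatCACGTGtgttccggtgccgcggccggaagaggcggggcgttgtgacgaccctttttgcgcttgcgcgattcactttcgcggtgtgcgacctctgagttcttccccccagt
Eif4e chr3:138527018-138527317: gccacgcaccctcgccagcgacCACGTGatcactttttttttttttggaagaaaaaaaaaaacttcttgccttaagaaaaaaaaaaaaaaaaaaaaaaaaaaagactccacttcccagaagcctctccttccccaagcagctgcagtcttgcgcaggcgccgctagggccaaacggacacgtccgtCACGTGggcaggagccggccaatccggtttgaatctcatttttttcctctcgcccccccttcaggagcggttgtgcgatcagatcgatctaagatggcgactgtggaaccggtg
Odc1 chr12:17544623-17544922: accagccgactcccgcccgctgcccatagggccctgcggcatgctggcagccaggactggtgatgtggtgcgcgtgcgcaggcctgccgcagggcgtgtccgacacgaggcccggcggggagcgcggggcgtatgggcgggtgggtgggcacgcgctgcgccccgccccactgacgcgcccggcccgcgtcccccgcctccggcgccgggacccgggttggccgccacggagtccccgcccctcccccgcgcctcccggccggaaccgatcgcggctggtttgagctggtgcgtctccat
Ptma chr1:86526307-86526606: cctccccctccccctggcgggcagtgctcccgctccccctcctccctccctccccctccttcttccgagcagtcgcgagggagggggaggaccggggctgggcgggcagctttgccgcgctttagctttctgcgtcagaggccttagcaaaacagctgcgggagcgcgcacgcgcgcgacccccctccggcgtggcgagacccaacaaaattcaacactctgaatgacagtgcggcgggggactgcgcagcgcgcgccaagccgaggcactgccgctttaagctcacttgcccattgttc

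Hspd1 and Hspe1 are transcribed away from each other from a common stretch of chromosome 1. The Hspe1 window, on the plus strand, shared 285 bases with the nearer of 2 Hspd1 windows, on the minus strand, and held no E-box.
Hspe1 chr1:55087898-55088197: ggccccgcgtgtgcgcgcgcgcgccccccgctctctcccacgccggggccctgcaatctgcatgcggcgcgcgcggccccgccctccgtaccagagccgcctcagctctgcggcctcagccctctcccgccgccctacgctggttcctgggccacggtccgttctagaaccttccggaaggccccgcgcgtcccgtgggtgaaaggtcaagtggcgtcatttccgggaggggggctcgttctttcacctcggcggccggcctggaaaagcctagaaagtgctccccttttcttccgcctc
Of 30 genes of the set with a window, 10 held the E-box in at least 1 window (33.3%), against 8.09% of all 27025 genes with one (7.15% of all windows). Besides Cdk4 and Nop2 these were Eif4e, Hspd1 in its farther window, Mybbp1a, Nme1, Pno1, Ran, Utp20 and Wdr43. The 7 tested genes with the motif had a median log2 ratio of 0.0035 with 4 above 0, and the 19 without it had 0.21 with 14 above 0. These are counts of letters in a window and say nothing of binding.

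The box C/D small nucleolar ribonucleoproteins guide methylation of ribosomal RNA, with Fbl as the methyltransferase and Nop56 and Nop58 as core proteins. Spot signals here are median pixel intensities before any correction, in scanner units, given for replicates 1 to 3. Fbl read 24947, 29449 and 30231 in Cy3 against 57034, 69011 and 64781 in Cy5, and its loess log2 ratios were 0.62, -0.082 and -0.39 (mean 0.050 ± 0.52, SD, n = 3). Nop56 read 11313, 19429 and 15468 against 26697, 42121 and 38942, with ratios of 0.54, -0.0009 and -0.73 (-0.067 ± 0.64). Nop58 read 6078, 7521 and 6709 against 14187, 16421 and 11199, with ratios of 0.52, -0.072 and -0.34 (0.034 ± 0.44). All 3 genes were high on replicate 1 and low on replicate 3. Their limma adjusted p-values were 0.966, 0.961 and 0.976. With each array centred on its median in place of loess, the means were -0.64 ± 0.39, -0.70 ± 0.48 and -0.49 ± 0.23, all below the -0.30 of all genes.

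The nucleolar organisers and shuttling proteins had the highest median among the groups with at least 5 tested genes, 0.48, and all 5 tested means were above 0. None was above 0 on all arrays, since replicate 2 was below 0 for each. Nolc1, a chaperone of small nucleolar ribonucleoproteins, read 1752, 1258 and 3603 in Cy3 against 2845, 2570 and 2742 in Cy5, with ratios of 0.99, -0.030 and 0.60 (0.52 ± 0.51, limma adjusted p = 0.703). Its other probe had -0.15, -0.083 and 0.76 and so differed from it most on replicate 1. Mybbp1a, a nucleolar factor of ribosomal RNA processing, read 1428, 891 and 3885 against 2854, 2100 and 2208, with ratios of 0.69, -0.24 and 1.00 (0.48 ± 0.64). Pa2g4, a growth regulator that binds ribosomes, read 1754, 979 and 3416 against 4216, 2269 and 1625, with ratios of 0.43, -0.21 and 1.22 (0.48 ± 0.71), and its other probe gave 0.63 ± 0.63. For Mybbp1a and Pa2g4 replicate 3 was the highest array. With median centring Nolc1, Mybbp1a and Pa2g4 stayed above 0, at 0.10 ± 0.55, 0.079 ± 0.83 and 0.081 ± 0.99.

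Ncl and Npm1 encode nucleolin and nucleophosmin, abundant nucleolar proteins that chaperone ribosomal RNA and assembling subunits. The brightest spot of Ncl gave 24736, 25470.4 and 57463 in Cy3 against 63285, 65108 and 55825 in Cy5, with ratios of 0.46, -0.21 and 0.80 (0.35 ± 0.52, limma adjusted p = 0.725). The next brightest followed it, at 0.45, -0.15 and 0.93. The 2 dimmer Ncl probes did not keep that order of arrays, with 0.42, -0.0064 and -0.16 at 1 of them and 0.0004, 0.68 and -0.58 at the other. Npm1 read 29909, 34863 and 29478 against 57256, 79549 and 62686, with ratios of 0.88, -0.033 and -0.38 (0.16 ± 0.65, limma adjusted p = 0.9), and its other probe had 1.08, -0.13 and 0.050. Replicate 1 was thus the high array for both Npm1 probes, and replicate 3 for the brighter 2 of Ncl. Centred on the median, Ncl was at -0.36 ± 0.52 and Npm1 at -0.54 ± 0.53.

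RNA polymerase I makes the ribosomal RNA precursor, and Polr1a and Polr1b encode its catalytic subunits. Polr1a read 2790, 3757 and 3515 in Cy3 against 10091, 7125 and 5749.5 in Cy5, with ratios of -0.13, 0.090 and -0.44 (-0.16 ± 0.26, limma adjusted p = 0.822). Polr1b read 521, 587 and 1875 against 1618, 1238 and 1221, with ratios of 0.021, -0.069 and 0.70 (0.22 ± 0.42, limma adjusted p = 0.795). Their means had opposite signs, and the arrays differed most on replicate 3, where Polr1a was lowest and Polr1b highest. With median centring they were at -0.62 ± 0.22 and -0.12 ± 0.75.

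Factors of the small subunit processome and of small subunit maturation lay on either side of 0. Rrp9, a protein of the U3 ribonucleoprotein, read 960, 1537 and 4378 in Cy3 against 1974, 3537 and 3166 in Cy5, with ratios of 0.63, -0.20 and 0.70 (0.37 ± 0.50, limma adjusted p = 0.717). Noc4l read 1081, 2157 and 4505 against 3185, 4427 and 3713, with ratios of 0.13, -0.032 and 0.53 (0.21 ± 0.29). Both were lowest on replicate 2. Rrp12, which takes part in subunit export, read 114, 165 and 298 against 306, 392 and 379.5, with ratios of 0.16, -0.25 and -0.26 (-0.12 ± 0.24). Pno1, a late small subunit factor, had ratios of 0.26, -0.083 and -0.29 (-0.039 ± 0.28) from signals of 7089, 11445 and 12259 against 20012, 25651 and 21442. With median centring all 4 were below 0, at -0.040, -0.22, -0.28 and -0.62 in the same order. All genes were then at -0.30, and Pno1 alone was below that.

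All 5 large subunit assembly factors had means above 0, with a median of 0.14. Ppan read 6381, 8049 and 7832 in Cy3 against 12449, 10679 and 9723 in Cy5, with ratios of 0.78, 0.63 and 0.084 (0.50 ± 0.37, limma adjusted p = 0.67), and it was the only gene of the set more than 0.5 above 0 on replicate 2. Nop2, a methyltransferase of large subunit RNA, read 6868, 12895 and 18380 against 16515, 25134 and 26209, with ratios of 0.48, 0.12 and 0.063 (0.22 ± 0.23, limma adjusted p = 0.736). These 2 were above 0 on each array, though by less than 0.1 on replicate 3. Bop1, a subunit of a complex needed to form the large subunit, read 2752, 4619 and 7929 against 8105, 9528 and 8472, with ratios of 0.16, -0.020 and 0.29 (0.14 ± 0.15). Nop16 read 2555, 4331 and 7349.5 against 6176, 9561 and 9102 at its brightest probe, with ratios of 0.44, -0.12 and 0.076 (0.13 ± 0.28), and its dimmer probe had 0.48, -0.034 and -0.91 (-0.16 ± 0.70). The Nop16 probes were close on replicates 1 and 2 and apart on replicate 3. Rrs1 had ratios of 0.29, -0.19 and 0.13 (0.076 ± 0.25) from signals of 1375, 1363 and 2643 against 3642, 3122 and 2740. With median centring all 5 were below 0, from -0.38 for Nop2 to -0.027 for Ppan. All genes were then at -0.30, and Ppan alone was above that.

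Ddx21 and Ddx18 encode RNA helicases of the nucleolus. The brightest spot of Ddx21 gave 709, 1243 and 2312 in Cy3 against 1658, 2301 and 1767 in Cy5, with ratios of 0.44, 0.11 and 0.52 (0.36 ± 0.22, limma adjusted p = 0.703). Its other probes averaged 0.38 ± 0.37 and 0.37 ± 0.66, so the means of the 3 probes lay within 0.1 of each other. Ddx18 read 1689, 1439.5 and 4287 against 5293, 3139.5 and 2689.5, with ratios of 0.057, -0.12 and 0.89 (0.27 ± 0.54, limma adjusted p = 0.774), and replicate 3 alone was far from 0. Centred on the median they were at -0.014 ± 0.47 and -0.15 ± 0.82.

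Enzymes of polyamine synthesis lay at opposite ends of the set. Odc1, ornithine decarboxylase, which starts the pathway and is a textbook MYC target, read 17505, 39574 and 33843 in Cy3 against 97458, 106527 and 102165 in Cy5 at its brightest probe, with ratios of -0.66, -0.26 and -0.82 (-0.58 ± 0.29, SD, n = 3, limma adjusted p = 0.582, 95% interval -1.04 to -0.12). All 3 arrays were below 0. A further Odc1 probe had -0.41, -0.34 and -0.18 (-0.31 ± 0.12), while the remaining probe had -0.29, 0.002 and 0.73 (0.15 ± 0.52), high on replicate 3. Srm, spermidine synthase, read 8356, 8521 and 18677 against 12131, 17523 and 15074, with ratios of 1.21, 0.020 and 0.83 (0.69 ± 0.61, limma adjusted p = 0.668, 95% interval -0.012 to 1.38). It was near 0 on replicate 2 and above 0.8 on the other arrays. With median centring Odc1 was at -1.30 ± 0.31 and Srm at 0.11 ± 0.57, so both kept their sign. Over the 14 tested genes of 15 listed for polyamine metabolism, Odc1 and Srm included, 0 passed in limma and the median was 0.049. At an unadjusted p under 0.05 in limma there were 2, Odc1 and Sat1, both below 0. Of all genes 7.48% had such a p in either direction, and 5.16% of all genes had one below 0. Sat1, which starts polyamine breakdown, was at -0.45 ± 0.22 and Smox, a spermine oxidase, at -0.45 ± 0.55.

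Other metabolic and translation targets of MYC had values on both sides of 0. Cad, the enzyme that starts pyrimidine synthesis, read 3256, 2776 and 4555 in Cy3 against 5479.5, 5375 and 4217 in Cy5, with ratios of 0.96, 0.053 and 0.38 (0.46 ± 0.46, limma adjusted p = 0.703). Of its other probes, 2 averaged 0.33 ± 0.41 and 0.19 ± 0.46. The dimmest Cad probe, at 46, 49 and 59 in Cy3, stood little above its local background of 26, 30 and 23 and averaged -0.066 ± 0.072. Nme1, a nucleoside diphosphate kinase, had ratios of 0.35, -0.13 and -0.21 (0.0035 ± 0.31) from signals of 3658, 8924 and 10092 against 9455, 20445 and 16205. Eif4e, the cap-binding translation factor, read 3457, 4254 and 3833 against 12723, 9112 and 7215, with ratios of -0.15, -0.078 and -0.61 (-0.28 ± 0.29, limma adjusted p = 0.717). It was below 0 on each array, but its other probe, at 0.24, 0.17 and -0.47, was below 0 on replicate 3 alone. Tfrc, the transferrin receptor of iron uptake, had ratios of 0.0087, -0.26 and 0.044 (-0.070 ± 0.17) from signals of 214, 683 and 1468 against 659.6, 1639 and 1523. Centred on the median, Cad was at 0.01 ± 0.40, Nme1 at -0.55 ± 0.17, Eif4e at -0.76 ± 0.14 and Tfrc at -0.37 ± 0.42.

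Among cell cycle targets, Cdk4, the kinase that pairs with D cyclins, had the highest mean of the set. It read 8864, 4773 and 16193 in Cy3 against 15567, 10003 and 8042 in Cy5, with ratios of 0.94, -0.042 and 1.45 (0.78 ± 0.76, SD, n = 3, 1.72-fold, limma adjusted p = 0.676, 95% interval -0.045 to 1.61). Replicate 2 was just below 0 and the other arrays well above, so that the spread was nearly as large as the mean. Cdc25a, a phosphatase that activates cyclin-dependent kinases, read 109.5, 54 and 81 against 204, 112 and 98, with ratios of 0.57, -0.21 and 0.18 (0.18 ± 0.39). Its local background in Cy3 was 22.5, 34 and 25, so that its signal was little above background on replicate 2. Centred on the median, Cdk4 was at 0.24 ± 0.86 and Cdc25a at 0.11 ± 0.29, both above 0.

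Ccnd2, a D cyclin, differed from the rest of the set on replicate 1. At its brightest probe the signals were 21039, 31435 and 38687 in Cy3 against 152316, 69236 and 54662 in Cy5, with ratios of -1.02, 0.0096 and 0.22 (-0.26 ± 0.67, limma adjusted p = 0.822). The other Ccnd2 probes gave -0.68, 0.10 and 0.49 and -0.74, 0.12 and 0.15. All 3 probes were thus low on replicate 1, with -0.68 as the highest of them, and above 0 on the other arrays, and Ccnd2 was 1 of 2 genes of the set below -0.5 on replicate 1, with Odc1. On the same array neural markers were far lower in the channel labelled SA1-null. Nes had ratios of -4.62, -0.088 and 0.20, Sox2 of -4.68, 0.21 and -0.058 and Stmn2 of -2.47, 0.18 and 0.35. The other tested neural markers, Map2 and Tubb3, were at 0.16 and 0.48 there. The summed signals of the 5 tested of 7 neural markers were 72557, 13088 and 11333 in Cy5 and 2242, 6836 and 11651 in Cy3. Their part in the Ccnd2 value was not tested.

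The list of D cyclins, CDK4 and CDK6 and their regulators, Cdk4 and Ccnd2 included, showed no common direction. Of 15 tested, 0 passed in limma (0 at an unadjusted p under 0.05, where 7.48% of all genes had one). The median was 0.016 and 8 were above 0 (53.3%, against 45.6% of all genes). With median centring 3 were above 0, and the median was -0.47, where all genes were at -0.30. The retinoblastoma gene Rb1 had ratios of -2.11, 0.36 and -0.41 (-0.72 ± 1.26), low on replicate 1. Cdkn2d and Cdkn2c, inhibitors of CDK4 and CDK6, were at -0.28 ± 0.45 and -0.18 ± 0.23.

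Mitochondrial chaperones gave ratios near 0, although their spots were among the brightest. Hspd1, the chaperonin, read 23166, 31385 and 41506 in Cy3 against 69723, 85598 and 68822 in Cy5, with ratios of 0.23, -0.29 and 0.021 (-0.015 ± 0.26, limma adjusted p = 0.987). Its other probe had 0.52, -0.10 and 0.80 (0.40 ± 0.46), higher on each array. Hspe1, the co-chaperonin whose promoter window is printed above, read 13530, 18953 and 18079 against 34683, 43048 and 31899, with ratios of 0.43, -0.068 and -0.23 (0.044 ± 0.34, limma adjusted p = 0.963). Both genes of the shared promoter were above 0 on replicate 1 and below 0 on replicate 2, and on replicate 3 they had opposite signs. Centred on the median they were at -0.72 ± 0.21 and -0.59 ± 0.19.

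Ptma, prothymosin alpha, an acidic nuclear protein, had the smallest p of the set. At its brightest probe the signals were 26217, 34014 and 40677 in Cy3 against 125035, 113835 and 96991 in Cy5, with ratios of -0.42, -0.57 and -0.47 (-0.49 ± 0.078, SD, n = 3, limma adjusted p = 0.55, 95% interval -0.86 to -0.11). The 3 arrays lay closer together than for any other tested gene of the set. The dimmer Ptma probe had 0.65, 0.068 and -0.31 (0.13 ± 0.48) and was above 0 on replicates 1 and 2, so the probes differed in sign. Ran, the GTPase of nuclear transport, was measured on replicates 1 and 2, at 0.44 and -0.14, from 32985 and 51332 in Cy3 and 86484 and 128744 in Cy5. With median centring Ptma was at -1.22 ± 0.078, and Ran at -0.41 and -0.84.

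Probes of the same gene did not always give the same sign. Among 12 genes with more than 1 probe, 5 (Nop16, Odc1, Cad, Hspd1 and Ptma) had probe means on both sides of 0. The distance between a gene's lowest and highest probe had a median of 0.31 and reached 0.73 for Odc1. For Odc1 and Ptma, the genes with the smallest p, the brightest probe was the lowest. With the median over a gene's probes in place of the brightest, 0 genes of the set had an unadjusted p under 0.05 in limma, and Odc1 was at -0.28 and Ptma at -0.18. The probes can lie in different parts of the transcripts, and their positions were not analysed here.

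**Figure D2:**
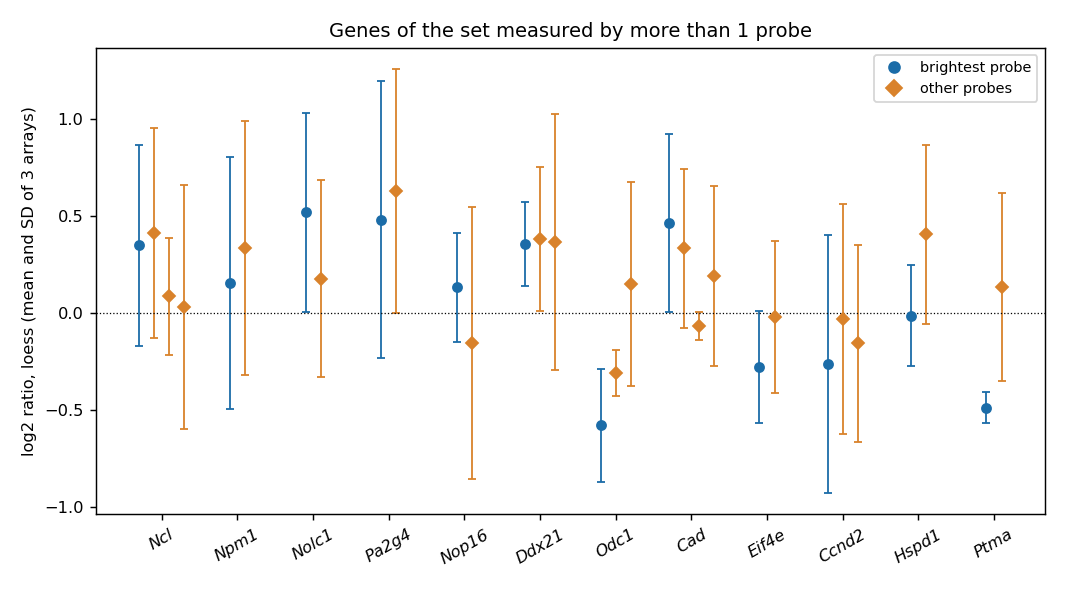
Points are probe means of the loess log2 ratio over 3 arrays, bars are 1 SD, circles the brightest probe of each gene and diamonds its other probes. The 3 probes of Ddx21 lie together, while those of Odc1 and Ptma lie on both sides of 0.

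The sign of much of the set also depended on how the arrays were scaled. Loess, used above, evens out ratios along the intensity range of each array, and median centring subtracts 1 value per array. That value was the median over the spots of the array before dim probes were left out. With median centring the median of the set was -0.36, while all genes were at -0.30. Of the set, 7 genes were above 0 (21.2%, against 19.7% of all genes), and 14 of 33 were above the median of all genes. The difference between the medians of the set and of all genes was then -0.064, against 0.17 with loess. By centring, 16 of 33 genes turned from above to below 0. The array medians of the set were -0.28, -0.64 and -0.14, beside -0.55, -0.35 and -0.046 for all genes. Relative to all genes on the same array, the set was therefore higher on replicate 1 and lower on replicates 2 and 3 under this scaling. At an unadjusted p under 0.05 in limma there were 11 of the 33 genes with it, in either direction, against 3336 of all 18498, also in either direction. All 11 were below 0, and 0 genes of the set passed after adjustment.

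**Figure D3:**
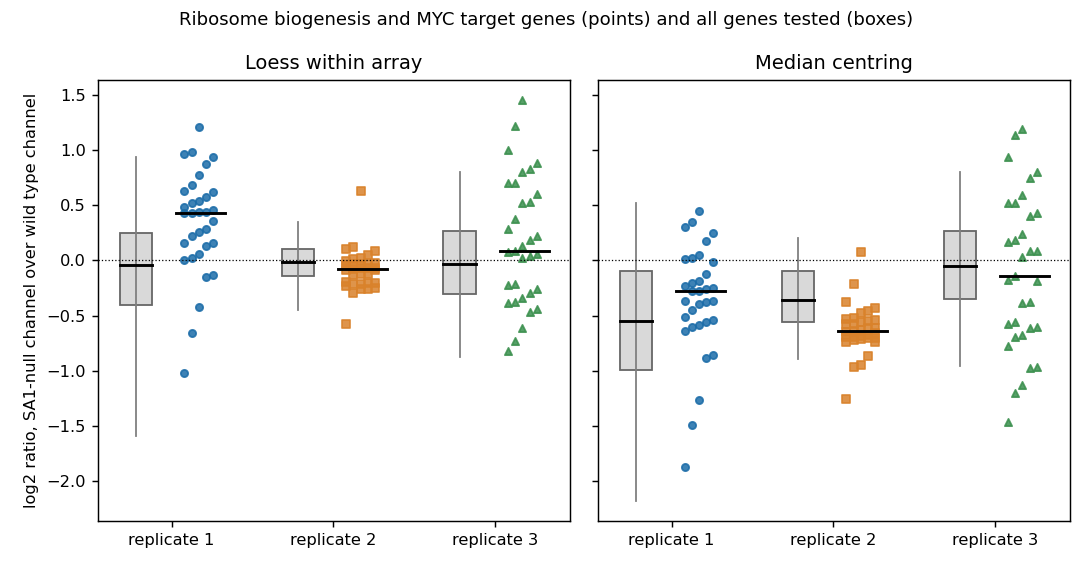
Points are the 33 tested genes on each array, boxes the quartiles of all genes with whiskers from the 5th to the 95th percentile, and thick lines medians, with loess on the left and median centring on the right. The median of the set lies above that of all genes on replicate 1 under both scalings and below it on replicate 2.

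Brightness went with these differences. The tested probes of the set stood at a median intensity percentile of 86.7 among all genes tested, and 16 of 33 were above the 90th. Across the 33 genes Spearman's rho between intensity percentile and mean ratio was -0.34 with loess and -0.67 with median centring, where over all genes it was 0.080 and -0.49. These values describe genes that share 3 arrays, and genes are not independent replicates. The drop from loess to median centring ran from 0.074 for Cdc25a, the dimmest, to 0.73 for Ptma, the brightest. In Cy5, 18 of the 53 probes had a value that the scanner files mark as scaled up from a low-gain scan on at least 1 array. Among them were the brightest probes of Odc1, Ptma and Ccnd2, with means below 0. Those of Fbl, Ncl and Npm1, with means of 0.050, 0.35 and 0.16, were among them too. The dimmer Ptma probe had no such value. Of the other Odc1 probes, the one at 0.15 had such a value on replicate 1 and the one at -0.31 had none. In Cy3 there were 12. The part of this scaling in the ratios was not tested.

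**Figure D4:**
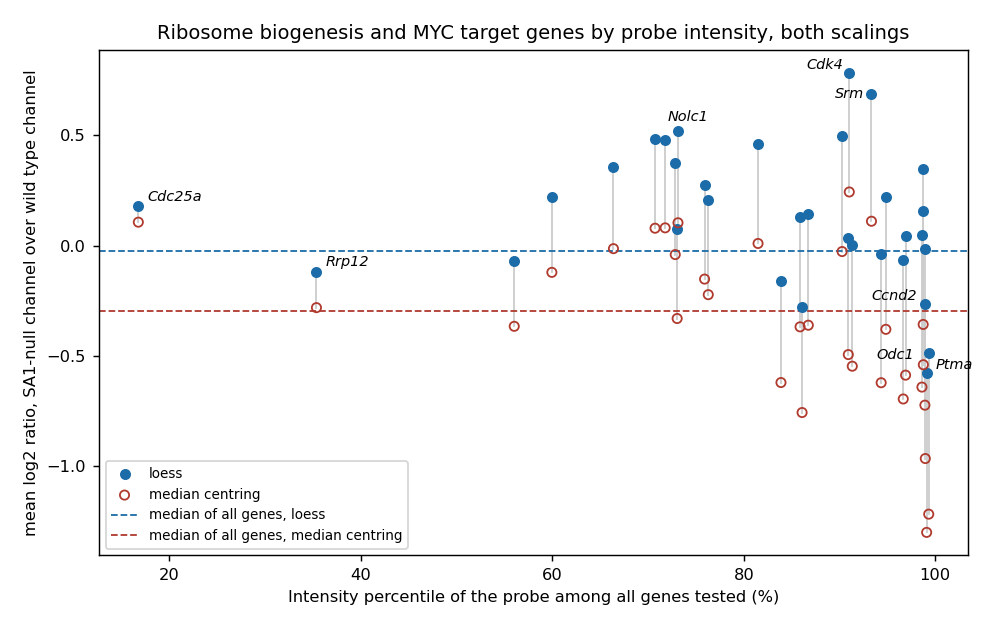
Each gene is placed by the intensity percentile of its brightest probe, with its mean log2 ratio by loess (filled) and by median centring (open) joined by a line, and dashed lines for the median of all genes. The open points drop farther below the filled ones toward the bright end, where Odc1, Ptma and Ccnd2 lie.

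Across 16 other ways of processing, 10 of the 33 genes kept the sign of their mean. Not all of the 16 could turn a sign. An intensity trend and both channels as separate samples alter the spread alone. Requiring both channels above background, or using no filter on dim probes, left the tested genes of the set at the same probes. For the 21 genes with 1 kept probe, the median over probes was that probe. Above 0 in each of the 16 were Nolc1, Mybbp1a, Pa2g4, Srm, Cad and Cdk4, and below 0 in each were Polr1a, Odc1, Eif4e and Ptma. Over these settings Cdk4 ranged from 0.24 to 1.20, Srm from 0.11 to 1.02, Odc1 from -1.30 to -0.28 and Ptma from -1.22 to -0.18. The smallest limma adjusted p of any gene of the set in any of them was 0.0641, for Srm with the slide as a fixed term, a fit whose spread comes from the 2 arrays of 1 slide.

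Myc itself had ratios of 1.01, 0.15 and 0.57 (0.58 ± 0.43, limma adjusted p = 0.663), highest on replicate 1 and lowest on replicate 2. Max, its partner, was at 0.28 ± 0.28 and Mxd4, an antagonist that also binds MAX, at 0.34 ± 0.18. Mycn had -2.92, -0.58 and -0.49, far lower on replicate 1, the array on which 3 of the 5 tested neural markers were far below 0 and the other 2 above it, and the part of that in the Mycn value was not tested. Mycl had -0.55, -0.38 and -1.15. Of the 11 genes of MYC and its network tested, 0 passed in limma. At an unadjusted p under 0.05 in limma there were 2, Mycl and Myc, where 7.48% of all genes had one. With loess 9 of the 11 were above 0 (81.8%, against 45.6% of all genes). With median centring 2 were above 0, and the median was -0.20, where all genes were at -0.30.

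Further ribosome biogenesis factors outside the set had a median close to that of the set. Of 95 listed, 88 were tested, 0 passed in limma and 3 had an unadjusted p under 0.05, all above 0, where 2.32% of all genes had such a p above 0. It was 0.11 with 61 above 0 (69.3%), and array medians were 0.32, -0.042 and 0.12. The smallest p belonged to the large subunit GTPase Gtpbp4 (1.05, 0.23 and 0.65, 0.64 ± 0.41, limma adjusted p = 0.609), followed by the pseudouridine synthase Dkc1 (0.47 ± 0.29), Mak16 (0.43 ± 0.21) and Utp14a (0.51 ± 0.37). With median centring the list was at -0.30, level with all genes to within 0.01.

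Further MYC growth targets, 54 of 56 listed, had a median of 0.16 with 38 above 0 (70.4%), and array medians of 0.28, -0.048 and 0.27. None passed in limma, and 5 of the 54 had an unadjusted p under 0.05, all above 0, beside the same 2.32% of all genes above 0 and 7.48% in either direction. The smallest p-values were those of Psat1 (1.66, 0.42 and 1.07, 1.05 ± 0.62), Slc7a5 (0.87 ± 0.65), Shmt2 (0.85 ± 0.64) and Yars (0.72 ± 0.51). Their limma adjusted p-values were 0.465 to 0.617. These genes, picked by their p, were each above 0 on all 3 arrays. They serve serine and folate metabolism, amino acid uptake and tRNA charging. Listed genes of like function, Kars, Shmt1, Slc3a2 and Farsa, were at 0.38, 0.36, 0.15 and -0.25. The list as a whole was at -0.41 with median centring, where all genes were at -0.30.

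The protein parts of the ribosome, 65 cytosolic ribosomal protein genes, had array medians of 0.26, -0.091 and 0.050, the same order of arrays as the assembly factors. With median centring they were at -0.58, lower than the -0.36 of the set, and their median intensity percentile was 99.3. All these lists share the same 3 arrays, and no test compared them.

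**Figure D5:**
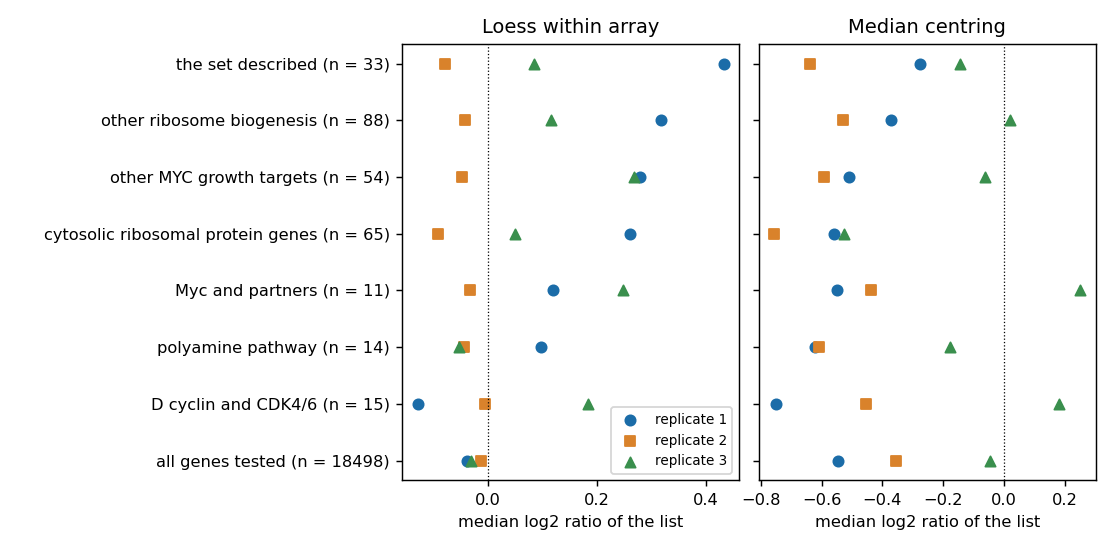
Symbols are list medians of the log2 ratio on each array, with loess on the left and median centring on the right; the set described here is the top row. With loess, replicate 2 is the array nearest to 0 in the top row, and with median centring replicate 2 lies below 0 in every row.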

How the data were processed

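Agilent 2-colour arrays of 3 replicates were analysed. Per the file headers, the scanner output of replicate 1 came from Feature Extraction 10.1.1.1 and that of the other replicates from 10.7.3.1. The deposited output gives the intensity of each spot and its surroundings, processed intensity values, and a log10 ratio of processed Cy5 over Cy3. The deposited table of log2 values was made with limma, per the submitters' processing notes, and for its version, background correction, normalization and centring the sources give nothing. Set against the ratios computed here, it ran as Cy5 over Cy3 (correlations across probes 0.982 to 0.997), with medians of -0.020, -0.017 and -0.0064.

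Spot medians were corrected with normexp (offset 50) and then loess-normalized per array, with limma 3.58.1 (R 4.3.3). Control spots and the 116, 125 and 207 spots with outlier flags were left out, and 0 were saturated. Of 41174 probes, 24032 were well above background in Cy3 or in Cy5 on all 3 arrays (60.7 to 67% of probes per channel). The brightest probe stood for each gene. 23374 probes matched a gene of the RefSeq table of GRCm38.p6 without versions, and other probes kept their accession. Mean ratios were tested against 0 with lmFit and eBayes, adjusted by Benjamini-Hochberg over all genes and called under 0.05. Each SD is that of 3 arrays, and their number limits the precision. The labels call the replicates biological and do not say how many embryos they came from.

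Each gene of the set is named, with values of every array. Of the other lists, up to 4 genes with the smallest p are named, beside Stag1, Myc and its partners. Map2, the fifth tested neural marker, was added after its value was seen, as were Kars, Shmt1, Slc3a2 and Farsa. The genes and lists were chosen with earlier results of these data known. Alternatives were other background corrections, scalings, filters, probe rules, variance models, the slide as a term and each replicate left out, with array weights and flagged spots kept added after seeing the data. Promoter sequences are from RefSeq. Figures were drawn with matplotlib 3.10.9.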

Additional observations from a re-analysis of the deposited data

How the results depend on the processing

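No gene of the set passed in limma under any alternative, where 0 to 11 had an unadjusted p under 0.05. The 11 were with median centring, where 3336 of all 18498 genes had one. The median of the set lay between -0.36 (median centring, 7 above 0, where all genes were at -0.30) and 0.25 (without replicate 2). With array weights, added after seeing the data, it was -0.018. With every probe on its own, 36 of 52 probes were above 0 (69.2%, against 49.4% of all kept probes). Leaving out replicates 1, 2 and 3 in turn left 16, 25 and 23 genes above 0. These were 48.5%, 75.8% and 69.7% of the set, against 47.0%, 45.8% and 45.5% of all genes.

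Median centring moved the median of all genes from -0.024 to -0.30. Genes whose mean changed sign, with the new value, were as follows, and the cause was not tested. With median centring they were -0.36 for Bop1, -0.15 for Ddx18, -0.014 for Ddx21, -0.64 for Fbl, -0.59 for Hspe1, -0.36 for Ncl, -0.55 for Nme1, -0.22 for Noc4l, -0.37 for Nop16, -0.38 for Nop2, -0.49 for Nop58, -0.54 for Npm1, -0.12 for Polr1b, -0.027 for Ppan, -0.041 for Rrp9 and -0.33 for Rrs1. With array weights they were -0.062 for Cdc25a, -0.050 for Fbl, -0.037 for Hspe1, -0.087 for Nme1, -0.025 for Nop16, -0.048 for Nop58 and -0.086 for Rrs1. With Agilent's processed signals they were 0.0097 for Hspd1, -0.020 for Nme1, 0.043 for Rrp12 and 0.035 for Tfrc. With an offset of 0 the value was -0.010 for Nme1, and with the deposited values 0.0082 for Tfrc. With the median over probes they were 0.19 for Hspd1 and -0.012 for Nop16, and with the slide as a fixed term 0.045 for Hspd1, 0.084 for Nop56 and 0.036 for Pno1. Genes that turned with 1 replicate left out had, over the 3 such fits, -0.51 to 0.12 for Ccnd2, -0.015 to 0.38 for Cdc25a, -0.032 to 0.47 for Ddx18, -0.23 to 0.27 for Fbl, -0.14 to 0.12 for Hspd1, -0.15 to 0.18 for Hspe1, -0.17 to 0.11 for Nme1, -0.021 to 0.26 for Nop16, -0.37 to 0.27 for Nop56, -0.21 to 0.22 for Nop58, -0.21 to 0.42 for Npm1, -0.19 to 0.088 for Pno1, -0.024 to 0.36 for Polr1b, -0.031 to 0.21 for Rrs1 and -0.13 to 0.026 for Tfrc.

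Over all genes, 57 passed in the analysis reported, 34 with median centring, 265 with an offset of 0, 118 without background subtraction, 325 with the processed signals and 92 with both channels required above background. With no filter on dim probes 0 passed (1990 at an unadjusted p under 0.05 in limma), as with an intensity trend (1103). With both channels as separate samples, that is with no replicate block for the array, 0 passed as well (633). Without replicate 1 there were 284, without replicates 2 or 3 there were 0 (1293 and 737 at an unadjusted p under 0.05 in limma), and with array weights 184. With the slide as a fixed term 1774 passed, 470 of them higher in the channel labelled SA1-null, against 2 of 57 in the analysis reported. In that fit 9.59% of all genes passed, beside 4 of 54 further MYC targets and 1 each of the 88 other ribosome biogenesis, 11 MYC network and 15 D cyclin genes. All tested probes of the set were marked as well above background in both channels. Even so, the dimmest Cad probe, and Cdc25a on replicate 2, stood little above their local background.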

Other observations

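Markers of 3 further cell types had no common direction, and none of those tested passed in limma after adjustment. Of 3 tested endothelial markers, 2 had a mean above 0. Emcn had log2 ratios of 1.57, 0.46 and 0.41, Kdr of -2.83, -0.32 and -0.27 and Egfl7 of 0.74, 0.076 and -0.089, so that Kdr alone was far below 0 on replicate 1. Of 5 tested epithelial markers, 2 were above 0, and the median was -0.097. The keratin genes Krt8 and Krt18 were below 0 on all 3 arrays, at -0.53, -1.28 and -1.25 and -0.20, -0.75 and -1.31, and Krt5 was above 0 on all 3, at 0.16, 0.023 and 0.0058. Of 5 tested muscle markers, 1 was above 0, and the median was -0.26. Des and Chrna1 were above 0 on replicate 1 and below it on the other arrays, at 1.73, -1.61 and -1.30 and 0.32, -0.65 and -0.54.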
